A study of Pinus pinaster with 24 samples.

Results

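Starved maritime pine seedlings held 69 transcript features, of 67271 measured, that were expressed in roots, low in the shoot and lower in roots 24 h after sulfate was given. They were picked by a rule on 4 values. The control mean had to be at least 2 in roots and below 1 in each of stem, needles and cotyledons, in CPM of a library size that, judged from the deposited values, was scaled (normalized CPM). The root difference, the mean of log2(value + 0.5) in sulfate roots minus that in control roots, had to be -0.8 or lower, and every control root value had to lie above every sulfate root value. The level criteria alone were met by 2277 root-expressed features, so 69 were lower with sulfate by this rule and 2208 were not. Of the 2277, 80 had a difference of -0.8 or lower, 11 of them with values that overlapped, and 18 had one of 0.8 or higher. Over all features, 9.09% had root values without overlap that were lower with sulfate, a share that stands beside the 69 as a count only. Because root values chose the 69, their root levels, and the calls that fits over all features gave them, are a description and not evidence.

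The seedlings were 4-month-old Pinus pinaster, a conifer, of the Segura-Alcaraz provenance, grown in vermiculite under a 16 h photoperiod. From 1 month after germination, and for 3 months, every plant was given 0.3 mM KNO3 at weekly intervals as a sulfur starvation treatment, so the control plants were starved as well. Sulfate plants then received 0.5 mM K2SO4 and control plants 1 mM KCl, and roots, stem, needles and cotyledons (the seed leaves) were frozen 24 h later. There were 8 groups of 3 libraries. Per the labels, a library is a biological replicate made of 13 to 14 pooled seedlings. Whether same-numbered libraries of different organs came from the same seedlings is not stated. Reads recovered from the values numbered 92664463 to 195881948 per library, 92664463 to 104403811 in roots. A level of 3 reads was 0.0240 to 0.0268 normalized CPM in a root library, and the lowest of the 69 control means rested on 696 reads over 3 libraries. Since the files carry identifiers without gene names, no function is given for any feature and the organ labels were not checked against marker genes. In organ samples like these, fewer cells of a type and less RNA per cell cannot be told apart.

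Plants take up sulfur as sulfate, through proton-coupled transporters of the root epidermis and cortex, and reduce it to sulfide for cysteine, methionine and glutathione. In Arabidopsis, sulfur starvation raises the mRNA of high-affinity root transporters and of several enzymes of sulfate reduction, and supplying sulfate lowers them again. Transcripts that are high in starved roots and lower soon after resupply are the class in which such genes are known from that species. Which of the pine features belong to those genes is not recorded in the files.

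**Figure D1:**
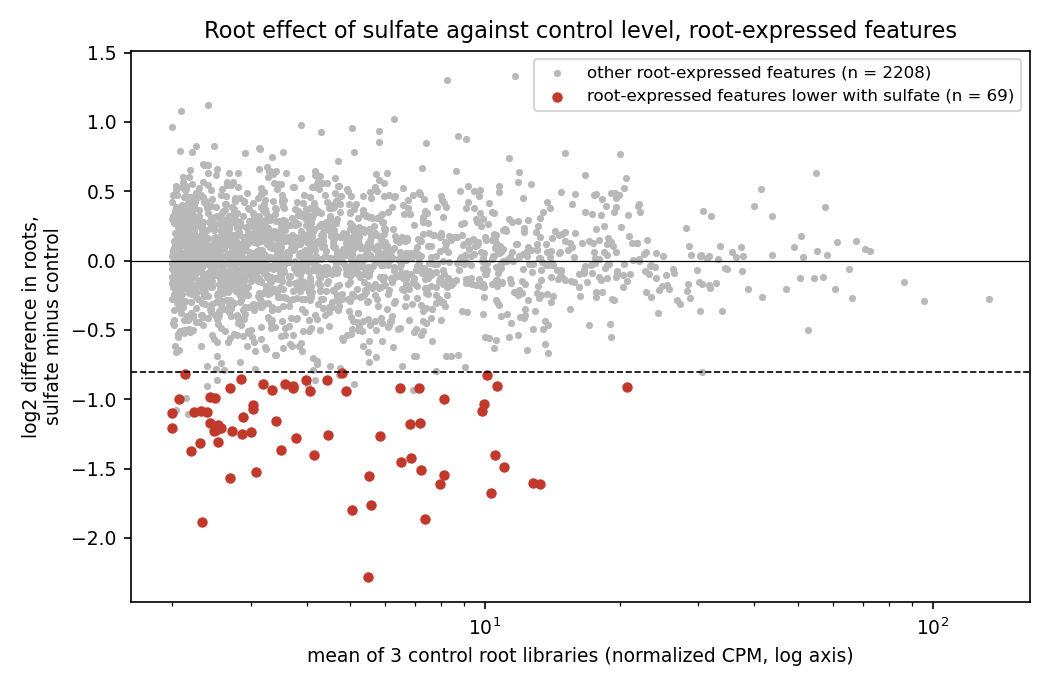
Root difference on the log2(value + 0.5) scale, sulfate minus control, against the mean of 3 control root libraries in normalized CPM (log axis) for 2277 root-expressed features. The 69 red points lie below the dashed line at -0.8, with control means of 2.00 to 20.8, and the 2208 grey points spread around 0.

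In roots the 69 features were of low to moderate abundance. Their control means ran from 2.00 to 20.8 normalized CPM with a median of 3.74, and 43 lay under 5 and 8 at 10 or more. Their sulfate means ran from 0.165 to 10.8 with a median of 1.38. The sulfate mean was 7.06 to 54.2% of the control mean, with a median of 34.97%. It was at most 50% in 65 features and at most 25% in 8. In each sulfate root library 0 of the 69 had 0 reads. Summed over the 69, the level was 114, 129.7 and 156 normalized CPM in the 3 sulfate root libraries, against 299, 461 and 310.1 in the 3 control root libraries. That is 0.0160 ± 0.00254% of the signal in sulfate roots and 0.0430 ± 0.0107% in control roots (SD, n = 3 each), with control 2 well above the other controls. The 2208 other root-expressed features summed to 14526 ± 328 in sulfate roots and 14142 ± 337 in control roots, and those values overlapped.

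**Figure D2:**
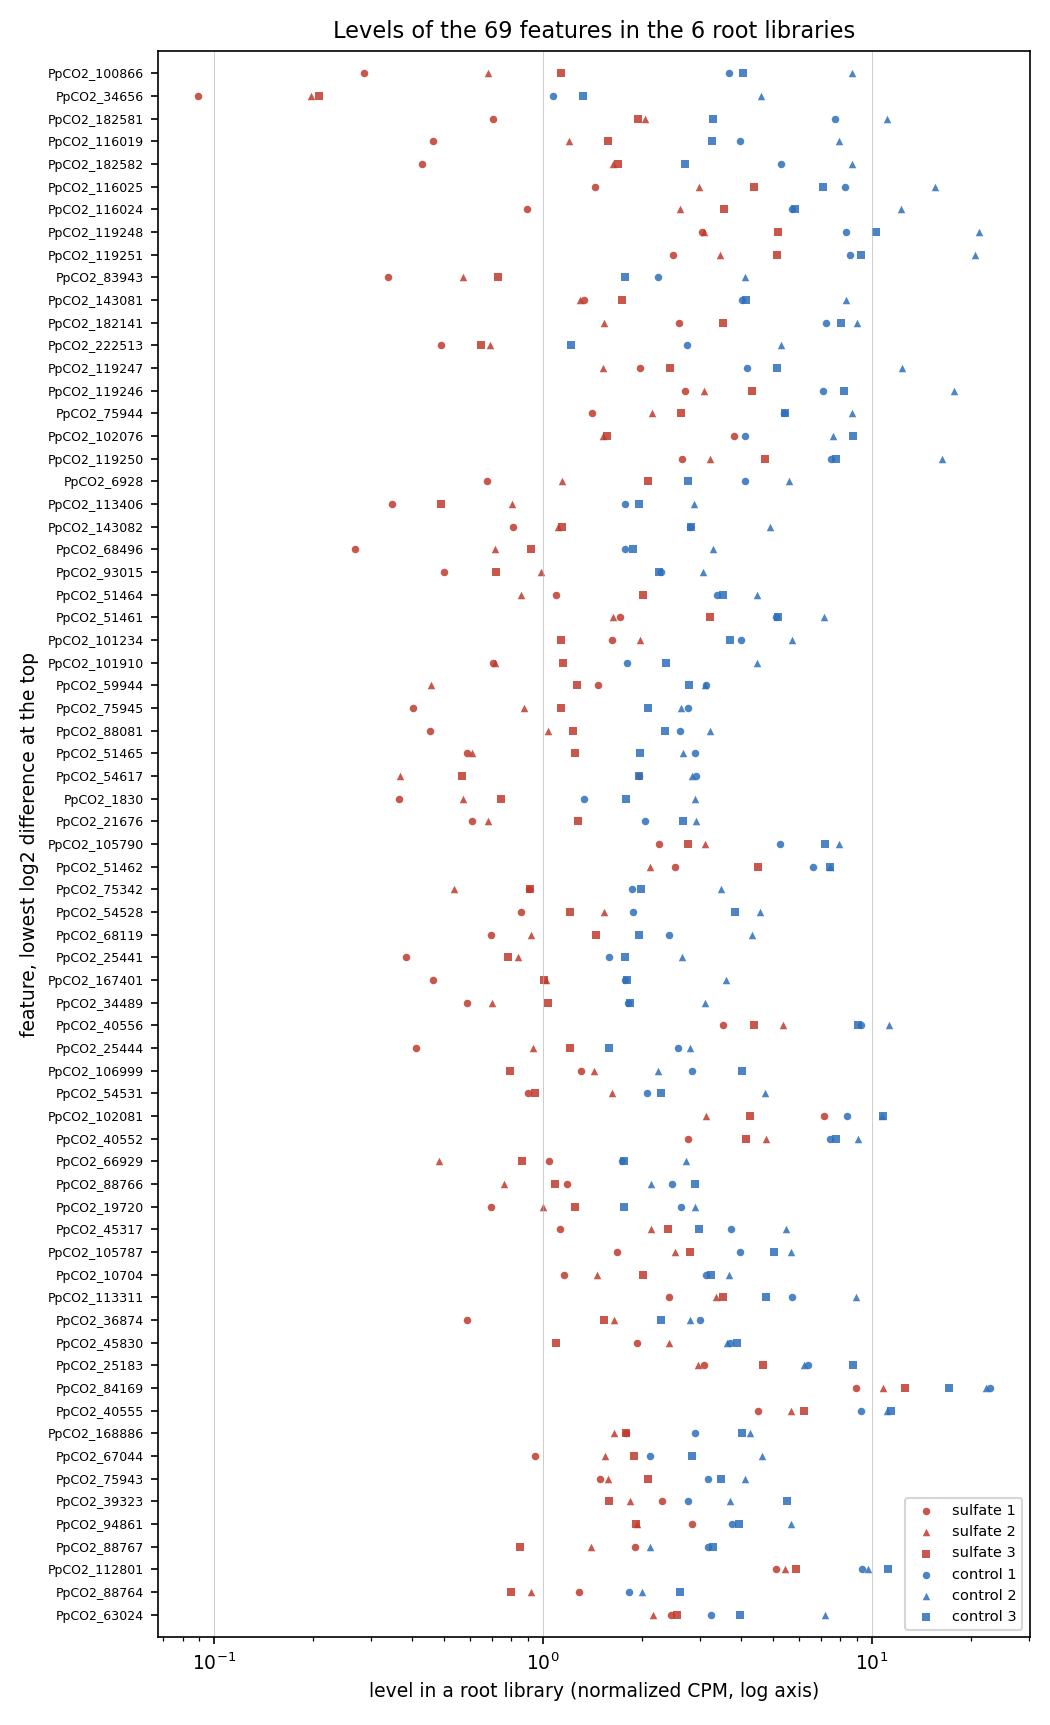
Level of each of the 69 features in the 6 root libraries, in normalized CPM on a log axis, with the lowest log2 difference at the top. Red marks are sulfate and blue marks control, and the shape gives the replicate number. In each row the red marks lie left of the blue marks, as the rule required, and the blue triangle (control 2) is the rightmost mark in 51 rows.

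The 8 lowest root differences, -1.61 to -2.28 on the log2(value + 0.5) scale, all came from features whose highest root value was in control 2. PpCO2_100866 had 0.285, 0.680 and 1.135 normalized CPM in sulfate roots, against 3.68, 8.67 and 4.06 in control roots, a difference of -2.28 ± 0.36 (SE). PpCO2_34656 had 0.0891, 0.197 and 0.208 normalized CPM in sulfate roots, against 1.07, 4.61 and 1.32 in control roots, and its sulfate mean was 7.06% of its control mean, the smallest share among the 69. In both, control 2 was the highest library and sulfate 1 the lowest. PpCO2_182581 and PpCO2_182582 are neighbouring identifiers and had like profiles. PpCO2_182581 had 0.704, 2.05 and 1.94 normalized CPM in sulfate roots, against 7.71, 11.1 and 3.29 in control roots. PpCO2_182582 had 0.428, 1.63 and 1.70 normalized CPM in sulfate roots, against 5.31, 8.67 and 2.70 in control roots. Control 3 was close to the sulfate values in this pair, while controls 1 and 2 lay well above it. PpCO2_116019, PpCO2_116024 and PpCO2_116025 also lie close together in number. PpCO2_116019 had 0.463, 1.198 and 1.58 normalized CPM in sulfate roots, against 3.98, 7.93 and 3.26 in control roots. PpCO2_116025, the most abundant of the 3, had 1.43, 2.98 and 4.37 normalized CPM in sulfate roots, against 8.28, 15.6 and 7.11 in control roots, and PpCO2_116024 had 0.891, 2.61 and 3.56 normalized CPM in sulfate roots, against 5.71, 12.3 and 5.85 in control roots. In all 3 the sulfate libraries ran in the order sulfate 1, sulfate 2, sulfate 3 from low to high, and control 2 stood at 2.03 to 2.19 times the mean of the other controls.

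The 8 highest control levels came from few places in the identifier order. PpCO2_84169 was the most abundant, with 8.93, 10.8 and 12.6 normalized CPM in sulfate roots, against 22.9, 22.3 and 17.1 in control roots, a difference of -0.91 ± 0.15. PpCO2_112801 had 5.12, 5.45 and 5.87 normalized CPM in sulfate roots, against 9.32, 9.76 and 11.2 in control roots, and PpCO2_40555 had 4.49, 5.66 and 6.24 normalized CPM in sulfate roots, against 9.29, 11.1 and 11.4 in control roots. These 3 had a highest control of at most 1.34 times the lowest and a sulfate mean of 51.4 to 54.2% of the control mean, among the highest shares in the set. The others were PpCO2_116025 and 4 members of a run of neighbouring identifiers, PpCO2_119246 to PpCO2_119251, which had deeper differences and a higher control 2.

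Some of the 69 had neighbouring numbers, and the rule had asked the same fall of each. Numbers at most 2 apart were taken as a run. The 69 features fell into 54 runs, 46 of them single features and 8 of 2 to 5 features, which together held 23. A root-expressed feature at most 2 numbers away was found for 33 of the 69, against 59.4% of the other root-expressed features. Neighbouring features may be near-identical copies that share reads, so those of a run are uncertain as separate measurements. The run of 5 comprised PpCO2_119246, PpCO2_119247, PpCO2_119248, PpCO2_119250 and PpCO2_119251. PpCO2_119248 had 3.05, 3.09 and 5.17 normalized CPM in sulfate roots, against 8.37, 21.1 and 10.3 in control roots, and PpCO2_119247, the lowest of the 5, had 1.98, 1.52 and 2.43 normalized CPM in sulfate roots, against 4.17, 12.3 and 5.16 in control roots. All 5 had root differences of -1.61 to -1.40, and in each control 2 was 2.14 to 2.64 times the mean of the other controls. Their neighbour PpCO2_119252 had a root difference of -1.01 but control means of 1 or more in all 3 shoot organs, up to 8.48, which kept it out. The run of 4 comprised PpCO2_51461, PpCO2_51462, PpCO2_51464 and PpCO2_51465, with PpCO2_51462 the highest at 2.51, 2.12 and 4.51 normalized CPM in sulfate roots, against 6.61, 7.45 and 7.48 in control roots. Its members differed by -1.28 to -1.17, and in contrast to the run of 5 their controls lay closer together, with control 2 at 1.06 to 1.39 times the mean of the others. Of the runs of 3, PpCO2_75943, PpCO2_75944 and PpCO2_75945 had differences of -0.89, -1.45 and -1.23. Next to it PpCO2_75942 was more abundant, at 16.8 normalized CPM in sulfate roots and 44.1 in control roots, and was kept out by a stem control mean of 5.20. In PpCO2_88764, PpCO2_88766 and PpCO2_88767 the differences were -0.82, -0.99 and -0.85, and control 3 was the highest library, with sulfate 2 or 3 the lowest. Their neighbours PpCO2_88763 and PpCO2_88765 had root differences of -0.29 and -0.34 with overlapping values, so adjacency in number did not carry the pattern throughout. Of the 12 listed neighbours of the runs outside the set, 8 had a root difference below 0 and 3 one of -0.8 or lower.

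Among the remaining features the same kinds of profile recurred. PpCO2_143081 and PpCO2_143082, a run of 2, had a high control 2. PpCO2_143081 had 1.34, 1.297 and 1.74 normalized CPM in sulfate roots, against 4.02, 8.33 and 4.15 in control roots. PpCO2_143082 had 0.811, 1.11 and 1.143 normalized CPM in sulfate roots, against 2.79, 4.89 and 2.82 in control roots. PpCO2_40555 and PpCO2_40556, a run of 2, had controls close together. PpCO2_40556 had 3.52, 5.38 and 4.38 normalized CPM in sulfate roots, against 9.27, 11.3 and 9.08 in control roots, and PpCO2_40552, 3 numbers before PpCO2_40555, had 2.75, 4.75 and 4.13 normalized CPM in sulfate roots, against 7.44, 9.07 and 7.80 in control roots. In PpCO2_40552, PpCO2_40555 and PpCO2_40556 sulfate 1 was the lowest library. PpCO2_102076 and PpCO2_102081 ran the other way within sulfate, with sulfate 1 the highest of the 3. PpCO2_102076 had 3.80, 1.52 and 1.57 normalized CPM in sulfate roots, against 4.12, 7.64 and 8.74 in control roots. PpCO2_102081 had 7.14, 3.12 and 4.25 normalized CPM in sulfate roots, against 8.41, 10.7 and 10.8 in control roots. PpCO2_83943 had 0.339, 0.572 and 0.728 normalized CPM in sulfate roots, against 2.23, 4.10 and 1.78 in control roots, with all 3 sulfate values under 1. PpCO2_93015 had 0.499, 0.984 and 0.720 normalized CPM in sulfate roots, against 2.29, 3.06 and 2.25 in control roots, and PpCO2_105790 had 2.24, 3.10 and 2.76 normalized CPM in sulfate roots, against 5.25, 7.96 and 7.21 in control roots. Their log2 differences were -1.30 ± 0.18 and -1.18 ± 0.16 (SE), in values that the rule had chosen to lie apart. At the other end, PpCO2_63024 had 2.44, 2.16 and 2.55 normalized CPM in sulfate roots, against 3.24, 7.20 and 3.97 in control roots, where controls 1 and 3 lay closer to the sulfate values than to control 2. The coefficient of variation of the root values had a median over the 69 features of 33.8% in sulfate roots and 27.96% in control roots. In the 2208 other root-expressed features it was 13.2% in sulfate roots and 14.8% in control roots.

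At the borders of the rule, values just inside and just outside were close. PpCO2_63024 and PpCO2_88764 entered with root differences of -0.81 and -0.82, and PpCO2_18209 and PpCO2_103426 stayed out at -0.79 and -0.79 as 2 of 191 features that met the other criteria. On the root level, PpCO2_25441 and PpCO2_1830 entered with control means of 2.00 and 2.01, and PpCO2_25437 and PpCO2_113405 missed it at 1.89 and 1.86. The limit on the shoot set aside the most, 851 features. PpCO2_83943 and PpCO2_25444 entered with stem control means of 0.974 and 0.973, while PpCO2_166478 (1.04 in stem) and PpCO2_54535 (1.04 in cotyledons) did not. The ban on overlap set aside 11. Among them PpCO2_102085 had 30.6, 10.4 and 15.8 normalized CPM in sulfate roots, against 32.1, 28.4 and 31.03 in control roots. Of the 69, PpCO2_54617 came closest to overlapping, with a highest sulfate value of 1.95 and a lowest control value of 1.96. Under a limit of 2 in place of 1 on the shoot organs 141 features met the rule, so the size of the set rests on this limit.

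By limma over all 60398 features tested in roots, 33 of the 69 had a Benjamini-Hochberg adjusted p under 0.05, where 1.38% of all features tested were called lower. All 69 passed the filter on low values. The contrast is the one that chose them, so nothing is read from this share or from which features were called. No feature of the 69 was called higher, against 0.487% of all. edgeR called 26 of the 69 (background 1.33%) and DESeq2 66 (background 3.63%) on recovered reads. Leaving out sulfate 1, 2 or 3 left 7, 10 and 22 calls by limma among 69 tested. Leaving out control 1, 2 or 3 left 20, 11 and 10 among 60, since the others then missed the filter on low values.

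The control root libraries differed in a like way across the set. Control 2 was the highest control library in 51 of them, control 3 in 12 and control 1 in 6. Among the 2208 other root-expressed features control 2 was the highest in 30.2%. The level in control 2 was a median of 1.49 times the mean of the other controls in the 69, against 0.978 times in the other root-expressed features. It exceeded 1.5 times each other control in 28 of 69, against 1.90% of the other root-expressed features and 2.58% of all features. Among 802 other features called lower in roots by limma it did so in 8.85%, with a median of 1.15 times. These shares are descriptions of control root values, which the rule used to choose the 69. The cause of the high control 2 was not tested. Without control 2 the summed level of the 69 was 133 normalized CPM in sulfate roots and 304 in control roots. Applied without control 2, the rule was met by 67 features, 52 of them among the 69. In 10 features the highest control was at most 1.3 times the lowest, among them PpCO2_40555, PpCO2_51462, PpCO2_112801 and PpCO2_182141. On the sulfate side, sulfate 1 was the lowest library in 46 of 69 and sulfate 3 the highest in 43, against 28.7% and 28.6% of the other root-expressed features.

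**Figure D3:**
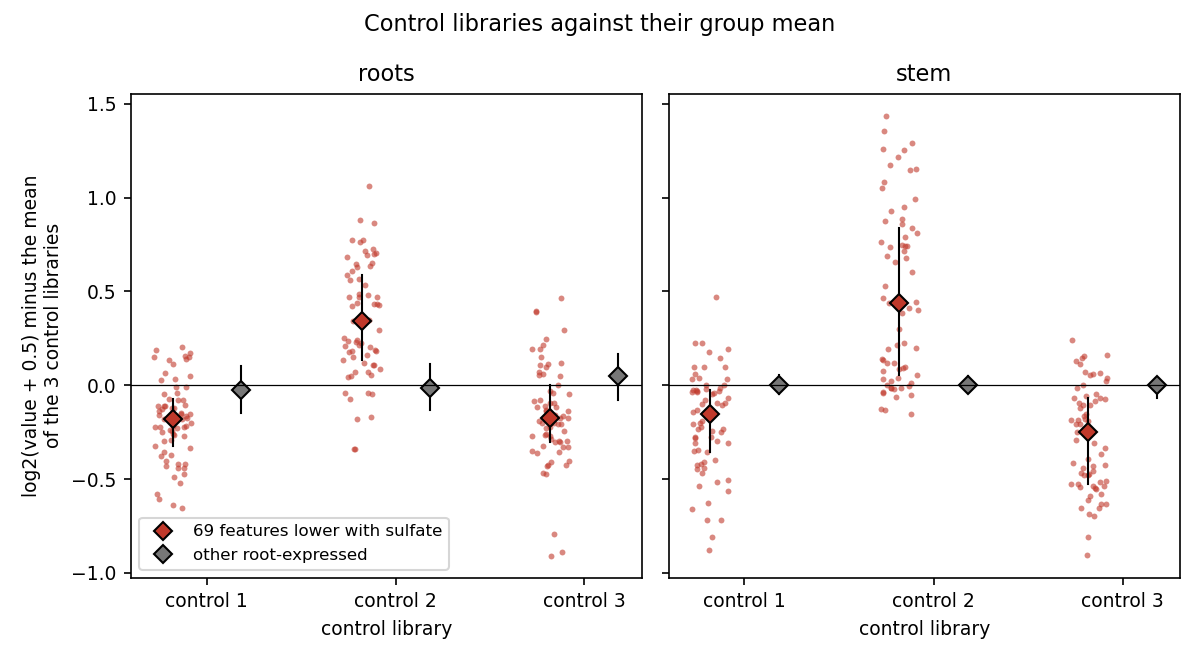
Deviation of each control library from the mean of the 3 control libraries of its organ, on the log2(value + 0.5) scale, in roots (left) and stem (right). Red points are the 69 features lower with sulfate, diamonds are medians and vertical lines the quartiles, with the 2208 other root-expressed features in grey. Control 2 lies above 0 for most of the 69 in both organs, while the grey medians stay near 0.

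The sulfate values of stem, needles and cotyledons took no part in choosing the features, and the control means there did only in being below 1. That limit bounds the control means from above and leaves the sulfate values free. In stem the means of 58 of 69 features were lower and those of 10 higher with sulfate. Stem means were lower in 38.5% of the other root-expressed features and 48.9% of all features. The median log2 difference of the 69 was -0.33, beside 0.01 in the other root-expressed features and 0.00 over all features. Every sulfate stem value lay below every control stem value in 19 of 69, from 18 runs, against 8.26% of all features and 4.12% of the other root-expressed features. In 0 of 69 did every sulfate value lie above every control value, against 9.06% of all features. The other root-expressed features were scarcer in stem. In stem controls 1, 2 and 3, 572, 620 and 644 of the 2208 had 0 reads, against 5, 2 and 6 of the 69. A feature with 0 reads in a control library cannot be lower without overlap. Shares in stem, needles and cotyledons were not matched for level.

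Tested one by one over all 67271 features without a filter, 1 of the 69 was called lower in stem by limma (Benjamini-Hochberg adjusted p under 0.05), where 0.461% of all features were, and none higher (0.101% of all). It was PpCO2_182141, with 0.166, 0.0951 and 0.110 normalized CPM in sulfate stem, against 0.718, 0.564 and 0.462 in control stem, a log2 difference of -0.79 ± 0.11 (SE; limma adjusted p = 0.0383). In roots the same feature had 2.59, 1.53 and 3.53 normalized CPM in sulfate roots, against 7.25, 9.01 and 8.08 in control roots, so in both organs its groups did not overlap. The stem call was lost on recovered reads by edgeR (adjusted p = 0.0704) and with a pseudocount of 2 (limma adjusted p = 0.0615), and without any single stem library but control 3. PpCO2_45830 had the lowest stem difference, -1.43, with 0, 0.0190 and 0 normalized CPM in sulfate stem, against 1.38, 0.822 and 0.510 in control stem. It missed the threshold by limma (adjusted p = 0.0574) and passed it by edgeR (adjusted p = 0.0161), which called this feature alone among the 69 and 0.468% of all features lower and 0.119% higher. Its sulfate stem values were at or near 0 reads while its root level with sulfate remained 1.81 ± 0.667 normalized CPM, against 3.74 ± 0.132 in control roots (SD, n = 3 each). An unadjusted p under 0.05 with a lower value was found for 7 of 69 by limma, where 5.27% of all features had one. DESeq2 called 13 of 69 lower and none higher in stem, where it called 2.36% of all features lower and 2.38% higher, and it gave 3 of the 69 no adjusted p.

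One stem library carried much of this difference. The 69 features summed to 15.1, 9.61 and 13.97 normalized CPM in the 3 sulfate stem libraries, against 19.4, 59.2 and 15.1 in the 3 control stem libraries. Stem control 2 thus stood at 3.43 times the mean of the other control stems, and the highest sulfate sum was level with control 3. PpCO2_25441 had 0.127, 0.0476 and 0.110 normalized CPM in sulfate stem, against 0.0921, 2.15 and 0.212 in control stem, and PpCO2_100866 had 0.0293, 0.0571 and 0.147 normalized CPM in sulfate stem, against 0.0368, 1.49 and 0.144 in control stem. In such features control 2 alone was high. It exceeded 1.5 times each other stem control in 43 of 69, against 13.5% of the other root-expressed features. Of the 28 features with such a control 2 in roots, 22 had it in stem as well. Another 21 had it in stem only, and 20 in neither organ. No such joint share was taken over other features. The other root-expressed features summed to 537, 554 and 509.9 normalized CPM in stem controls 1, 2 and 3, which puts control 2 at 1.06 times the mean of the others. Without stem control 2 the means of 43 of 69 features were lower and 25 higher, the median log2 difference was -0.05, and the sums averaged 12.9 in sulfate stem and 17.2 in control stem. Values without overlap then numbered 20, against 14.7% of all features.

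**Figure D4:**
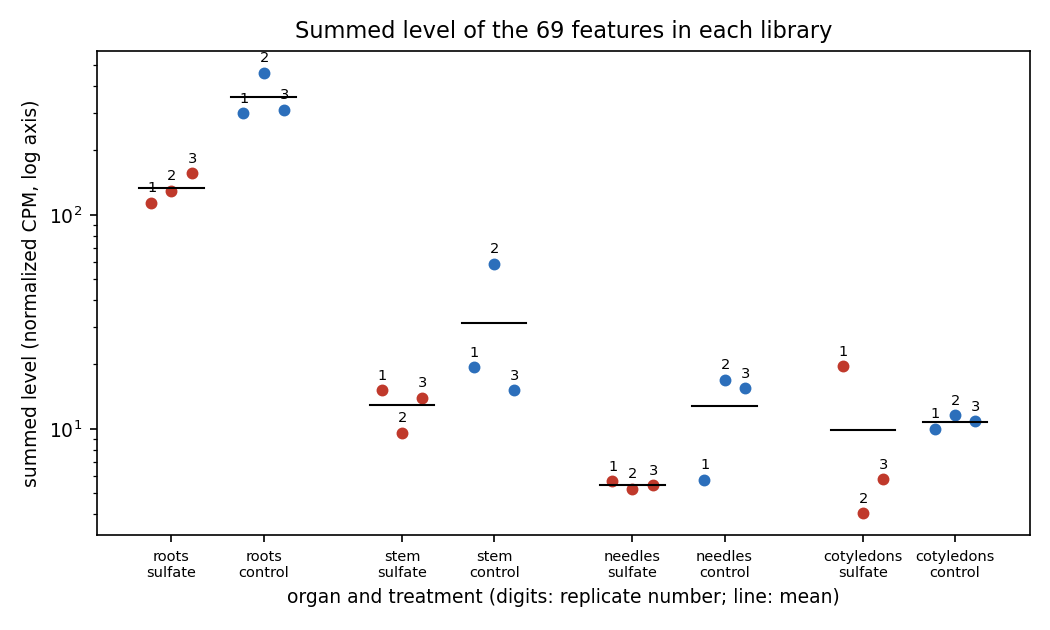
Summed level of the 69 features in each of the 24 libraries, in normalized CPM on a log axis, by organ and treatment, with replicate numbers beside the points and a line at the group mean. Root sums reach 156 with sulfate and 461 in controls, and control 2 stands apart in roots and stem as sulfate 1 does in cotyledons.

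In needles the 69 features were scarcer still. They summed to 5.68, 5.26 and 5.45 normalized CPM in sulfate needles, against 5.78, 16.99 and 15.5 in control needles. Control 1 was close to the sulfate libraries, and controls 2 and 3 lay higher. The other root-expressed features also summed lowest in control 1 among the controls, at 290.2, 352 and 356 in controls 1, 2 and 3, against 273, 268 and 328 in sulfate needles. The means of 53 of 69 were lower and those of 9 higher. Needle means were lower in 51.0% of the other root-expressed features and 52.1% of all features. The median log2 difference of the 69 was -0.12, beside -0.00 in the other root-expressed features and -0.01 over all features. No overlap and lower sulfate values were found in 9 of 69, against 7.11% of all features, and without control 2 in 10, against 10.7%. PpCO2_21676 alone had higher sulfate values without overlap (5.44% of all features), with 0.842, 1.18 and 0.834 normalized CPM in sulfate needles, against 0.791, 0.829 and 0.654 in control needles. None was called by limma in either direction, with a lowest adjusted p of 0.121, where 0.419% of all features were called lower and 0.0282% higher. At an unadjusted p under 0.05, 6 were lower and none higher (4.39% of all features were lower). edgeR called none, where it called 0.427% of all features lower and 0.0312% higher. DESeq2 called none either, against 0.899% lower and 0.351% higher, and gave 9 of the 69 no adjusted p. PpCO2_59944 had the lowest p, with 0.164, 0.0220 and 0.104 normalized CPM in sulfate needles, against 0.577, 0.510 and 0.403 in control needles. PpCO2_6928 had the lowest mean difference, with 0.105, 0.3197 and 0 normalized CPM in sulfate needles, against 0.223, 1.86 and 0.665 in control needles. Its controls ranged widely and sulfate 2 lay above control 1. The next lowest, PpCO2_116025, had 0.140, 0 and 0 normalized CPM in sulfate needles, against 0.0412, 0.390 and 1.42 in control needles, where control 3 alone was high. At these levels, often under a level of 1, a change could go undetected feature by feature.

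In cotyledons the means of 43 of 69 features were lower and those of 21 higher with sulfate. Cotyledon means were lower in 37.4% of the other root-expressed features and 48.4% of all features. The median log2 difference of the 69 was -0.03, beside 0 in the other root-expressed features and 0.00 over all features. The sums were 19.6, 4.05 and 5.81 normalized CPM in sulfate cotyledons, against 10.03, 11.6 and 10.8 in control cotyledons, so sulfate 1 lay above and sulfate 2 and 3 below every control. PpCO2_116025 made up part of the sulfate 1 excess, with 4.16, 0.0651 and 0 normalized CPM in sulfate cotyledons, against 0.198, 0.0627 and 0.111 in control cotyledons. PpCO2_105787 had 1.74, 0.0868 and 0.107 normalized CPM in sulfate cotyledons, against 0.274, 0.0627 and 0.467 in control cotyledons, and PpCO2_34656 had 2.72, 0 and 0.290 normalized CPM in sulfate cotyledons, against 1.23, 0.0836 and 0.289 in control cotyledons. In these features sulfate 1 alone was high among the sulfate libraries, so their sulfate means rest on it. The other root-expressed features summed to 311, 277 and 298 in sulfate cotyledons, against 317, 256 and 321 in control cotyledons, with no such excess in sulfate 1. Without sulfate 1 the means of 49 of the 69 were lower and those of 15 higher, and the sums averaged 4.93 in sulfate cotyledons and 10.8 in control cotyledons. By limma none of the 69 was called in either direction, where 0.224% of all features were called lower and 0.00892% higher, and 5 were lower and none higher at an unadjusted p under 0.05 (3.22% of all features were lower). With the replicate number as a block, limma again called none of the 69, with 59 features lower over all in place of 151. The block treats same-numbered cotyledon libraries as pairs, which rests on correlated deviations alone. edgeR called none, against 0.18% of all features lower and 0.00743% higher. DESeq2 called 3 lower, PpCO2_1830, PpCO2_6928 and PpCO2_25441, and none higher, against 0.705% lower and 0.699% higher, and gave 24 of the 69 no adjusted p. No overlap with lower sulfate values was found in 7 of 69 (6.19% of all features), and without sulfate 1 in 16 (10.6%). Higher sulfate values without overlap were found in 0 of 69 (7.54% of all features). PpCO2_6928 had the lowest cotyledon difference, with 0.0727, 0.174 and 0.258 normalized CPM in sulfate cotyledons, against 0.379, 0.961 and 1.302 in control cotyledons.

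Features without overlap in a shoot organ were spread over the set. Lower sulfate values without overlap in at least 1 shoot organ were found in 27 of 69, against 17.8% of all features and 11.1% of the other root-expressed features. In at least 2 organs there were 7, against 3.01% of all features and 0.996% of the other root-expressed ones. In all 3 there was 1, PpCO2_25444, against 0.767% of all features. None of these shares was matched for level. PpCO2_25444 had 0.410, 0.930 and 1.21 normalized CPM in sulfate roots, against 2.58, 2.80 and 1.58 in control roots. Its stem held 0.147, 0.00951 and 0.129 normalized CPM in sulfate stem, against 0.230, 2.36 and 0.327 in control stem, with control 2 far above the other controls. Its needles held 0.0819, 0.0441 and 0.0417 normalized CPM in sulfate needles, against 0.0989, 1.10 and 0.218 in control needles, and its cotyledons held 0.156, 0.0434 and 0.0859 normalized CPM in sulfate cotyledons, against 0.225, 1.201 and 0.256 in control cotyledons. In each organ control 2 was its highest library. PpCO2_1830 had 0.0783, 0.0381 and 0.101 normalized CPM in sulfate stem, against 0.258, 2.10 and 0.212 in control stem, and its cotyledons held 0.0416, 0.0543 and 0.0429 normalized CPM in sulfate cotyledons, against 0.115, 0.742 and 0.267 in control cotyledons. PpCO2_59944 had 0, 0.0190 and 0 normalized CPM in sulfate stem, against 0.129, 0.516 and 0.154 in control stem, without overlap as in its needles, with control 2 again the highest. None of PpCO2_25444, PpCO2_1830 and PpCO2_59944 passed limma in stem, with adjusted p of 0.547, 0.551 and 0.351. The highest stem differences were small. PpCO2_102081 had 0.548, 0.285 and 0.625 normalized CPM in sulfate stem, against 0.258, 0.344 and 0.414 in control stem, a log2 difference of 0.22, and PpCO2_88767 had 0.450, 0.114 and 0.239 normalized CPM in sulfate stem, against 0.157, 0.105 and 0.231 in control stem, a difference of 0.19. The groups overlapped in both. In cotyledons PpCO2_66929 had 0.488, 0.282 and 0.172 normalized CPM in sulfate cotyledons, against 0.115, 0.115 and 0.211 in control cotyledons, also with overlap.

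**Figure D5:**
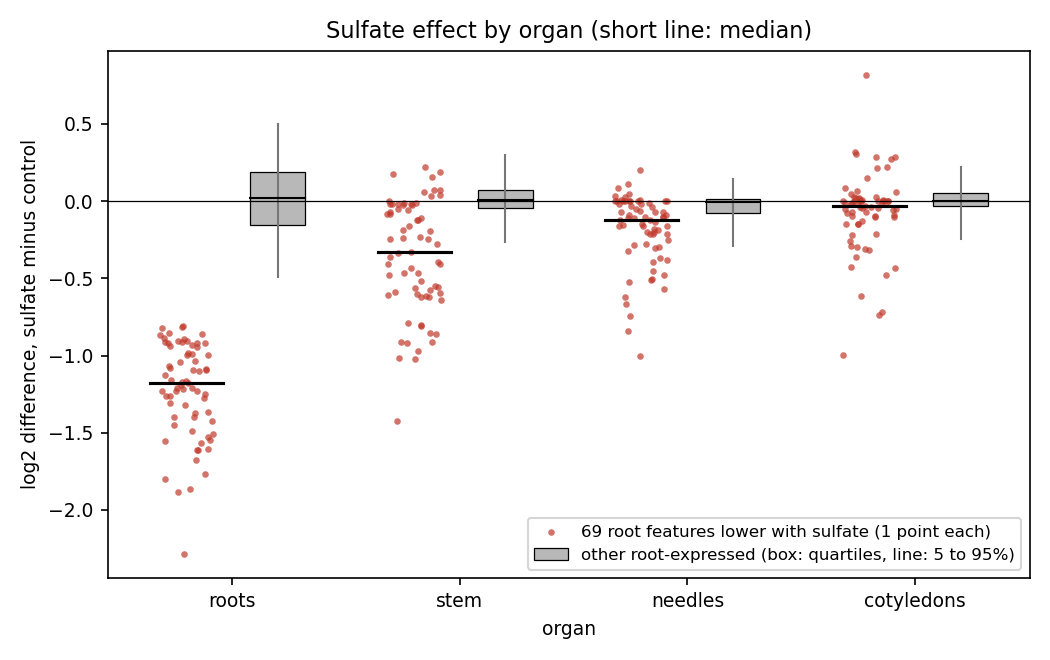
Log2 difference, sulfate minus control on the log2(value + 0.5) scale, in each organ. Red points are the 69 features and short lines their medians, at -1.18 (roots), -0.33 (stem), -0.12 (needles) and -0.03 (cotyledons), beside grey boxes for the 2208 other root-expressed features. The root points were chosen to lie at -0.8 or below.

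The features differed among themselves in where else they were found. Of the 69, 53 had their highest shoot control mean in stem, 9 in cotyledons and 7 in needles. The stem count includes PpCO2_39323, whose control means were 0 in all 3 shoot organs. In 9 features every shoot control mean was under 0.1 normalized CPM, and these were PpCO2_39323, PpCO2_40552, PpCO2_40555, PpCO2_40556, PpCO2_54617, PpCO2_88764, PpCO2_88766, PpCO2_112801 and PpCO2_116024. PpCO2_39323 had 0 reads in the 9 control shoot libraries, which allows a level of up to 0.0334 normalized CPM in the control library where 3 reads count most, and 1 read in the 9 sulfate shoot libraries. In roots it had 2.30, 1.83 and 1.59 normalized CPM in sulfate roots, against 2.75, 3.71 and 5.51 in control roots. In 36 features a shoot control mean was at least 0.5. Pseudocounts of 0.5 compress differences at such levels, so the smaller shoot medians are not set against the root median. Across the 69, the Spearman correlation of the root difference with the stem difference was 0.49, with the needle difference 0.32 and with the cotyledon difference -0.13. In the 2208 other root-expressed features the same 3 correlations were 0.16, 0.07 and 0.08. These values describe features that share libraries, and the 69 also share runs and, for many, a high control 2 in roots and stem.

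After sulfate the summed level of the 69 features was still highest in roots. Root sulfate means were at least 2 in 23, 1 to under 2 in 25 and under 1 in 21 of 69. Every sulfate root value lay above every one of the 9 sulfate shoot values in 53 features, as did every control root value above the 9 control shoot values in 62. The control count follows in large part from the rule's limits on the control means. No share over other features stands beside either count, so nothing more is read from them. The summed level in sulfate roots, 133 ± 21.5, compares with 12.9 ± 2.91 in sulfate stem, 5.47 ± 0.213 in sulfate needles and 9.83 ± 8.53 in sulfate cotyledons (SD, n = 3 each). Levels set across organs rest on the scaling in the deposited values, whose factors by the recovered reads were 1.198 to 1.22 in roots and 0.877 to 1.10 in the other organs. PpCO2_84169 kept the highest root level with sulfate, 10.8 ± 1.85 normalized CPM, against 20.8 ± 3.17 in control roots, and PpCO2_34656 the lowest, 0.165 ± 0.0656 against 2.33 ± 1.97.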

How the data were processed

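Per the labels' protocols, oligo(dT)-selected RNA was reverse transcribed from random hexamers and read as 150 bp pairs, with no word on strand. bcl2fastq and BWA are named without versions, per the submitters' processing notes. For the counting tool, the reference, the scaling and any filter, the sources used here give nothing. The deposited signal is called CPM by the authors, but its columns sum to other totals than plain CPM, so it was treated as CPM of a scaled library size. All values are whole multiples of 1 step per library (tolerance 0.01 of a step), which gave the reads. In needle control 2 the step was 0.00999, next to 0.01, but only 2.78% of its values above 0 were multiples of 0.01.

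Groups and numbers came from the labels, and libraries of a group differed beyond sampling noise, so each counted as 1. The separate origin of the pools rests on the labels. The features and tests were chosen with earlier results of these data known. Sulfate was tested against control in each organ with limma 3.58.1 in R 4.3.3 (trend and robust eBayes) on log2(value + 0.5), with Benjamini-Hochberg adjustment over all features tested and a threshold of 0.05. Roots used a filter of 1 in at least 3 of 6 libraries. Stem, needles and cotyledons used none, since that filter would admit a feature with a control mean below 1 mainly where sulfate is higher. edgeR 4.0.16 and DESeq2 1.42.0 on recovered reads were alternatives, with other pseudocounts, scalings, fits, a replicate block and each library left out. Simulated reads were also used to test fits, but no outcome is given here. Nothing is therefore read from that test about detection by any of the fits, in roots or in the shoot organs. Same-numbered sulfate and control libraries deviated together in cotyledons (r = 0.168 to 0.298 for the 3 pairs) and not in all pairs of the other organs. Named features were those with the 8 lowest root differences, the 8 highest control means, the 4 differences nearest -0.8, the 3 largest changes each way per shoot organ at a mean of at least 0.1, calls in a shoot organ, the longest runs (with ties) and the neighbours of each limit; others are named where a count or list called for it, after their values were seen. Limits for 0 reads cover counting error only, and SD the spread between libraries. SE is the moderated standard error of the limma fit, which also draws on the variance of other features. Figures were drawn in Python 3.11.15 with matplotlib 3.10.9.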

Additional observations from a re-analysis of the deposited data

How the results depend on the processing

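The rule was met by 69 features, by 14 with a root difference of -1.5 or lower, 26 with a control mean of at least 5, 33 and 141 with shoot limits of 0.5 and 2, and 28 with a pseudocount of 2; the other 7 settings gave counts within 1.5 times. Leaving out 1 root library gave 67 to 91. The log2 ratio of the summed root levels was -1.42, and -1.55 to -1.19 with a library left out. DESeq2 called more features, 3498 (roots), 3187 (stem), 841 (needles) and 944 (cotyledons), against 1129, 378, 301 and 157 by limma. Of the 69, DESeq2 called 66, 13, 0 and 3, against 33, 1, 0 and 0 by limma. The fit over 24 libraries called 741 features in needles and 506 in cotyledons, and 2 of the 69 in stem. A pseudocount of 0.1 gave 2 of the 69 in stem and a pseudocount of 2 gave 0. The replicate block gave 239 features in stem, 0 of them among the 69, and 60 in cotyledons, and 32 of the 69 in roots. In roots, stem and needles not every library correlated best with its own number. The block was an alternative setting in every organ, and the main fits used none. Leaving out 1 library gave over all features 338 to 1179 calls (roots), 171 to 379 (stem), 201 to 311 (needles) and 46 to 155 (cotyledons), and 7 to 22 of the 69 in roots, 0 to 2 in stem and 0 in needles and cotyledons. The cause of these differences was not tested. The filter of 1 in 3 of 6 libraries left none of the 69 to test in stem, needles or cotyledons, so it gave no value. Keeping 1 feature per run, chosen after seeing the data, gave 1 call in stem. At this depth many shoot values are 0: in needles 33 of the 69 had 0 reads in sulfate 2, which allows up to 0.0331 normalized CPM.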

Other observations

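Whether the sulfate difference of the 69 features itself differed between shoot organs was tested after seeing the data, as a contrast of differences in a limma fit over 24 libraries with Benjamini-Hochberg adjustment over 3 pairs of organs and all features. None of the 69 passed in stem minus needles, stem minus cotyledons or needles minus cotyledons, where 18, 28 and 15 of 67271 features did. The lowest limma adjusted p among the 69 was 0.115, 0.0598 and 0.718 in these pairs, and 4, 5 and 2 had an unadjusted p under 0.05 by limma. No share over all features stands beside these 3 counts, so nothing is read from them.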
